A study of Homo sapiens with 4 samples.

Results

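The endothelin system comprises the ligand genes EDN1, EDN2 and EDN3, the receptor genes EDNRA and EDNRB, and ECE1, the gene of the main endothelin converting enzyme. These 6 genes were listed as a pathway and were selected on the finding that EDN1 and EDN2 were over 2-fold lower with siEfp in Ishikawa cells. Values are given for 5 of the 6, out of 18417 genes measured. EDNRA, the receptor selective for endothelin 1 and endothelin 2 over endothelin 3, was not analysed here.

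Endothelins are short peptides that are cut from larger precursors, first by furin-type proteases and then by endothelin converting enzymes at the cell surface or inside the cell. The mature peptides act on G protein coupled receptors, which raise cell calcium through phospholipase C and activate MAP kinases, partly by way of the EGF receptor. EDNRA drives contraction and growth, whereas EDNRB also clears endothelin and releases nitric oxide from endothelium. In the uterus, endothelin is made by the endometrium and is known for its effects on vessels and smooth muscle, and many carcinomas use it as an autocrine growth signal.

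Gene expression was measured on 4 arrays. Ishikawa cells carry ERα and derive from a well-differentiated adenocarcinoma of the endometrium, and HEC-1A cells lack ERα and derive from a moderately differentiated one. They were each treated with siControl, a non-targeting siRNA, or with siEfp, an siRNA against Efp, the ubiquitin ligase encoded by TRIM25. The Ishikawa arrays used the duplex siEfp #A and RNA taken at 48 h, while the sources used here give neither the duplex nor the time for HEC-1A. There was 1 array per condition, so a difference between siEfp and siControl within a line has no replicate error and no test. Each line is a single established culture, and off-target effects of a single duplex cannot be told apart from effects of Efp loss.

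The signal of TRIM25 went from 9.42 (log2, siControl) to 7.96 (siEfp) on the Ishikawa arrays and from 9.50 to 7.93 on the HEC-1A arrays, in the direction of the labels. The median signal of all genes was 6.25 to 6.34 on the 4 arrays, and arrays correlated at 0.992 and 0.993 within a line and at 0.956 to 0.958 between lines over probe sets. As a reference for background, the 95th percentile of 341 olfactory receptor genes, which epithelial cells do not use, was at 4.65 to 4.89. Between 28.1% and 30.6% of all genes were under this level on an array. Of 10 epithelial markers measured, 10 were above that level on both Ishikawa arrays and 9 on both HEC-1A arrays. The exception was CDH1, E-cadherin, at 4.07 and 3.74 in HEC-1A against 10.22 and 9.62 in Ishikawa, and EPCAM was at 11.24 on both Ishikawa arrays and at 7.26 and 7.05 in HEC-1A. ESR1, the ERα gene, was at 6.91 and 6.65 in Ishikawa and at 4.45 and 4.77 in HEC-1A.

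The sequences just upstream of the EDN1 and EDN2 starts are shown because these are the members with the large differences, and because EDN1 is a classical target of GATA, hypoxia-inducible, AP-1, FOXO and NF-κB factors. They come from RefSeq on GRCh38.p14, run 5′ to 3′ on the gene's strand over the 250 bases before an annotated start, and hold no transcribed base. Capitals mark every match to the motifs searched. The EDN1 window is chr6:12290111-12290360 on the plus strand, the most downstream of 3 annotated starts, and the EDN2 window is chr1:41484684-41484933 on the minus strand, its only annotated start.
EDN1: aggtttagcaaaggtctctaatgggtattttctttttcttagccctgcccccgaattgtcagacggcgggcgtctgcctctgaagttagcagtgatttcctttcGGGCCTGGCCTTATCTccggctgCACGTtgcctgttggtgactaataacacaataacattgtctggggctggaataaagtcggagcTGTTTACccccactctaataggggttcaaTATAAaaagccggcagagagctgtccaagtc
EDN2: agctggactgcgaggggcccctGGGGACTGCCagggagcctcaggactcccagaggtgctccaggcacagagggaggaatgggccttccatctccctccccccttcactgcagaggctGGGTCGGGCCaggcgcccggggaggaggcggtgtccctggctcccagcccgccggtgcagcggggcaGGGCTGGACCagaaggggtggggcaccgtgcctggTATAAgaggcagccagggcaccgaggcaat

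The motifs searched on both strands were AGATAA for GATA factors, ACGTG for hypoxia-inducible factors, GGG followed after any 5 bases by CC for NF-κB, GTAAACA for FOXO, TGANTCA for AP-1 and TTCNNNGAA for STAT, and TATAA was searched on the gene's strand. The EDN1 window had 5 matches. Counted from the start, with the base before it as -1, a TATAA lay at -31 to -27 and a FOXO match, on the opposite strand, at -60 to -54. A match for hypoxia-inducible factors lay at -123 to -119 and a GATA match at -136 to -131, both also on the opposite strand. An NF-κB match lay at -146 to -137 on the gene's strand, adjacent to the GATA match without overlap. The windows before the other EDN1 starts, not printed, had 4 matches and 0, none of them for GATA, FOXO or TATAA. The EDN2 window had a TATAA at -30 to -26 and 3 NF-κB matches, at -228 to -219, -132 to -123 and -65 to -56. Of 35116 promoter windows of the same length, 54.4% held an NF-κB match, 18.5% an ACGTG, 13.6% a TATAA, 9.17% a GATA match and 2.98% a FOXO match. The AP-1 and STAT letters, each in 6.57% of windows, had no match in either printed window. Looser forms were not counted, such as the TGACTAA in the EDN1 window, which is a single base away from TGANTCA. The GC content was 49.2% for EDN1 and 70.8% for EDN2. These matches are letters in a window and were not tested as sites.

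Among the ligands, EDN1 was lower with siEfp in both lines. EDN1 encodes endothelin 1, a strong vasoconstrictor and mitogen. Its log2 signal (probe set 8116921) was 9.78 with siControl and 8.53 with siEfp in Ishikawa, and 5.82 and 4.91 in HEC-1A. The 2 Ishikawa arrays were both above the 2 HEC-1A arrays, and within each line the siEfp array was the lower. The difference, siEfp minus siControl, was -1.24 on the log2 scale in Ishikawa, or 2.37-fold lower, and -0.91 in HEC-1A, or 1.88-fold lower. Thus 42.2% of the control signal was left in Ishikawa and 53.1% in HEC-1A. In bulk RNA, fewer cells that make a transcript and less of it per cell cannot be told apart.

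The size of a difference can be set against genes of like brightness. The Ishikawa difference selected the gene and is given as a value only. The HEC-1A arrays were not used to select it, and there EDN1 stayed short of a 2-fold difference. The SD of the HEC-1A difference over the 2528 genes with a mean signal within 0.5 log2 of EDN1 was 0.25, and 2 of them were as low. EDN1 ranked 70 of 18417 from the lowest in HEC-1A. Its signal on the HEC-1A siEfp array was close to background, with 7 of the 341 olfactory receptor genes at or above it and 0 on each of the other arrays, and RMA compresses differences that low.

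EDN2 was lower with siEfp in Ishikawa, whereas in HEC-1A its difference lay within the spread of genes of like signal. EDN2 encodes endothelin 2, which differs from endothelin 1 at a pair of residues and is known in the ovary for its part in ovulation. Its log2 signal (probe set 7915385) was 8.97 with siControl and 7.13 with siEfp in Ishikawa, and 6.07 and 5.90 in HEC-1A. As for EDN1, both Ishikawa arrays were above both HEC-1A arrays, but the Ishikawa siEfp array lay nearer to the HEC-1A arrays than to its own control. The difference was -1.85 in Ishikawa, 3.59-fold lower with 27.8% of the control signal left, and -0.17 in HEC-1A, 1.13-fold lower with 88.6% left.

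The Ishikawa difference of EDN2 was part of its selection too and was not set against other genes. In HEC-1A the SD over 2293 genes of like signal was 0.26, with 537 as low, and EDN2 ranked 3805 of 18417. No olfactory receptor gene reached the EDN2 signal on any array, so it stayed above background in HEC-1A.

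**Figure D1:**
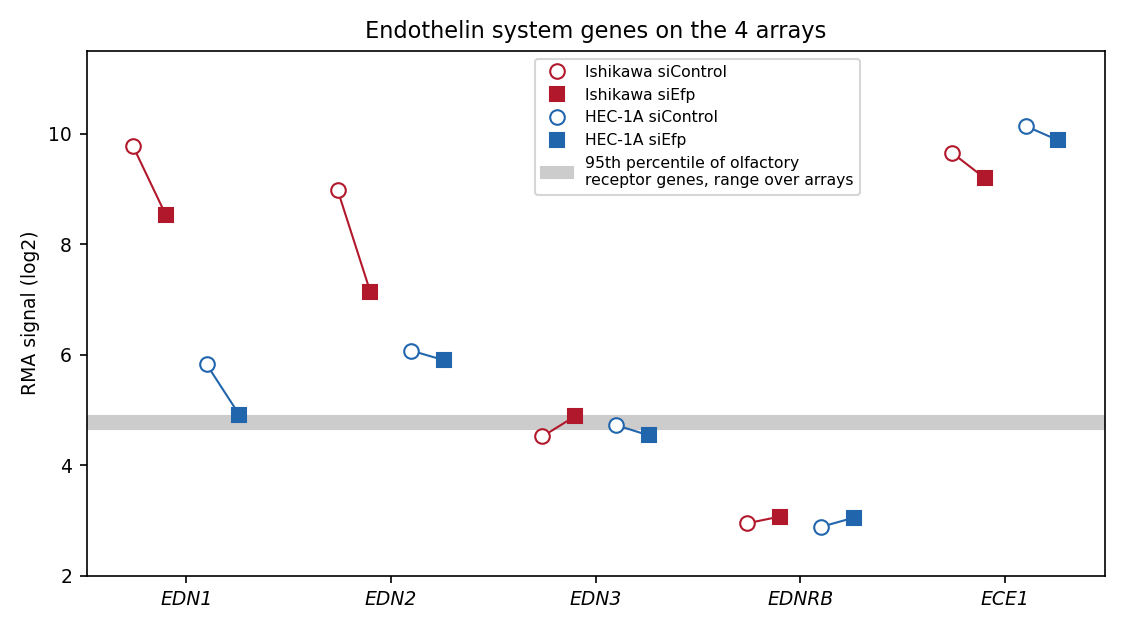
RMA signal (log2) of the 5 measured endothelin system genes on the 4 arrays, with open circles for siControl, filled squares for siEfp, red for Ishikawa and blue for HEC-1A, and 1 array per point. The grey band is the range over arrays of the 95th percentile of olfactory receptor genes, 4.65 to 4.89. EDN1 goes from 9.78 to 8.53 in Ishikawa and from 5.82 to 4.91 in HEC-1A, EDN2 from 8.97 to 7.13 and from 6.07 to 5.90, and EDNRB lies under the band on all 4 arrays.

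The 2 ligands therefore gave different values when the lines were set against each other, with no test possible from 1 array per condition. The Ishikawa difference minus the HEC-1A difference was -1.67 for EDN2 and -0.33 for EDN1. Both hold the Ishikawa difference that selected the genes, so they are descriptions. The plot of genes of like signal shows the HEC-1A value of each ligand in its own distribution.

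**Figure D2:**
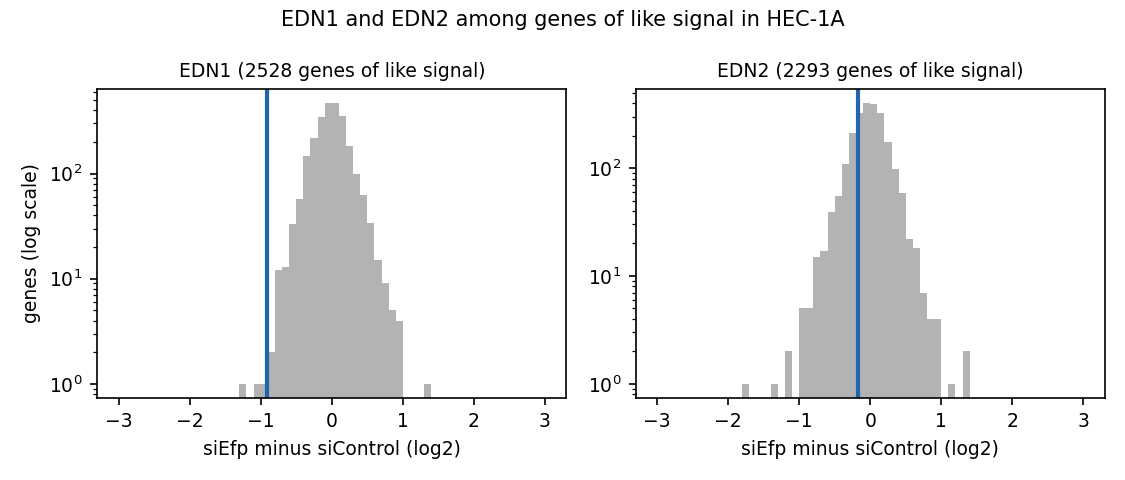
Histograms of siEfp minus siControl (log2) over genes with a mean signal within 0.5 log2 of EDN1 (left) or EDN2 (right) in HEC-1A, with the number of genes on a log scale. The blue line is the gene itself. EDN1 stands at the low edge of 2528 genes at -0.91, while EDN2 is inside the bulk of 2293 genes at -0.17.

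EDN3 encodes endothelin 3, the ligand of EDNRB in neural crest development. Its log2 signal (probe set 8063729) was 4.52 with siControl and 4.89 with siEfp in Ishikawa, and 4.72 and 4.54 in HEC-1A. All 4 values lay close to the background reference, under it on the Ishikawa siControl and HEC-1A siEfp arrays, and 13 to 29 of the 341 olfactory receptor genes were at or above them. The difference was 0.37 in Ishikawa, where the SD of genes of like signal was 0.27 and 251 of 2606 were as high, and -0.19 in HEC-1A, where the SD was 0.25. Over both lines EDN3 did not pass limma (adjusted p = 0.886).

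Of the receptors, EDNRB was at the level of background. This gene encodes the receptor that binds all endothelins alike. Its log2 signal (probe set 7972157) was 2.95 with siControl and 3.07 with siEfp in Ishikawa, and 2.88 and 3.05 in HEC-1A. Between 271 and 291 of the 341 olfactory receptor genes were at or above it on each array. Its differences of 0.12 and 0.17 were smaller than the SD of genes of like signal, which was 0.20 in Ishikawa and 0.22 in HEC-1A, and limma over both lines gave an adjusted p of 0.708. A signal this low does not show that the transcript is absent.

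ECE1 encodes the membrane metalloprotease that makes active endothelin from its precursor. Its log2 signal (probe set 7913357) was 9.65 with siControl and 9.20 with siEfp in Ishikawa, and 10.14 and 9.88 in HEC-1A. It was well above background on all arrays, with the siEfp array the lower in each line. The difference was -0.46 in Ishikawa, with an SD of 0.31 over 1534 genes of like signal and 125 as low, and -0.26 in HEC-1A, with an SD of 0.25 over 1130 genes and 135 as low. The mean difference over both lines was -0.36 (SE 0.13), which did not pass limma (adjusted p = 0.344, and 0.188 with an intensity trend). ECE2, a related enzyme that is mainly neural, was at 6.73 and 6.48 in Ishikawa and at 6.72 and 6.79 in HEC-1A.

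Of the 5 measured members, 2 were at least 2-fold lower in Ishikawa, which is the criterion that chose them, and 0 were so in HEC-1A. The criterion was met by 148 of all genes (0.804%) in Ishikawa, with 25 (0.136%) as far in the other direction, while in HEC-1A 50 (0.271%) were lower and 19 (0.103%) higher. On either side of the criterion in Ishikawa stood EDN1 at -1.24 and ECE1 at -0.46. The limma fit over both lines takes the lines as replicates of 1 effect. It called 29 genes lower (0.157%) and 1 higher (0.00543%), and called none of EDN3, EDNRB and ECE1. No p-value from this fit is given for EDN1 and EDN2, because the Ishikawa arrays that selected them are in it.

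**Figure D3:**
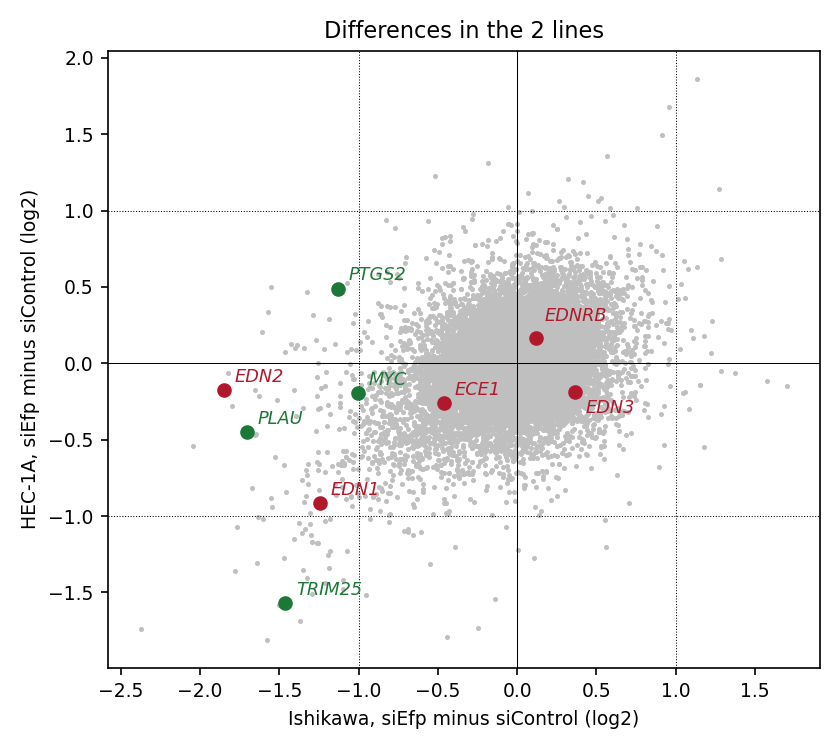
Difference siEfp minus siControl (log2) in Ishikawa on the horizontal axis and in HEC-1A on the vertical axis for 18417 genes in grey, with endothelin system genes in red, and in green TRIM25 and the 3 endothelin 1-induced genes past the 2-fold line. Dotted lines mark a 2-fold difference. EDN1 lies at -1.24 and -0.91, lower in both lines as is TRIM25, whereas EDN2 lies at -1.85 and -0.17, near the horizontal axis.

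Besides the response to siEfp, the lines differed in how much of each ligand they carried. The EDN1 signal was higher in Ishikawa than in HEC-1A by 3.95 on the log2 scale with siControl, or 15.5-fold, and by 3.62 with siEfp, or 12.3-fold. For EDN2 the line difference was 2.90 with siControl, or 7.47-fold, but 1.23 with siEfp, or 2.35-fold. The lowest Ishikawa array was still above the highest HEC-1A array by 2.71 for EDN1 and by 1.06 for EDN2. The Ishikawa arrays selected these genes, and only a gene with signal to lose could meet the criterion, so the levels are a description with no test.

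ECE1 differed the other way. It was lower in Ishikawa by a log2 difference of -0.48 with siControl and -0.68 with siEfp. The line effect passed limma at -0.58 (adjusted p = 0.0123), with the siControl and siEfp arrays of each line taken as replicates beside a treatment term. EDN3 and EDNRB did not pass, with adjusted p-values of 0.791 and 0.836. Over all genes, 17% were called higher in Ishikawa and 18.3% higher in HEC-1A. Both Ishikawa arrays were at least 2-fold above both HEC-1A arrays for 4.92% of all genes and for EDN1 and EDN2, from which nothing is read. The reverse held for 3.17% of all genes and 0 of 5 members.

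The rest of the pathway was read from 8 lists drawn from general knowledge of endothelin biology, in which 145 other genes were measured. With siEfp 60 of them (41.4%) were lower in Ishikawa, with a median difference of 0.05, and 83 (57.2%) were lower in HEC-1A, with a median of -0.05. Over all genes 47.6% and 47.7% were lower, and the median difference was 0.01 in each line. At least 2-fold lower were 3 of the 145 in Ishikawa and 0 in HEC-1A, beside 0.804% and 0.271% of all genes. In either line 0 were 2-fold higher, beside 0.136% and 0.103% of all genes. For the siEfp effect over both lines limma called 0 of the 145, with 1 called with an intensity trend. An unadjusted p under 0.05 was given to 23 of them (15.9%) and to 2205 of all genes (12.0%).

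The 3 genes past 2-fold in Ishikawa were all on the list of genes that endothelin 1 is known to induce. PLAU, the urokinase of matrix breakdown, was at 7.63 with siControl and 5.93 with siEfp in Ishikawa, and at 10.07 and 9.62 in HEC-1A, which gives -1.70 and -0.45. PTGS2, cyclooxygenase 2, was at 6.33 and 5.20 in Ishikawa and at 3.56 and 4.05 in HEC-1A, where both arrays were under the background reference. MYC, a growth-promoting transcription factor, was at 9.67 and 8.67 in Ishikawa and at 10.67 and 10.48 in HEC-1A. The MYC difference in Ishikawa, -1.004, was only just past 2-fold. In HEC-1A none of the 3 was 2-fold lower, and PTGS2 was higher by 0.49. These genes have many other inducers, and they were known to be low in Ishikawa from earlier results of these data. Of the 24 measured genes of the list, 16 were lower in Ishikawa and 18 in HEC-1A, with medians of -0.12 and -0.13. Without dim genes, those under the median signal, the medians were -0.25 in Ishikawa and -0.13 in HEC-1A. No median of all genes under this filter is given, so the filtered list medians have no such reference.

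Among the G proteins that couple to the receptors, 5 of 12 were lower in each line, and the medians were 0.06 and 0.02. GNAQ, the alpha subunit that activates phospholipase C, differed by -0.80 in Ishikawa and by -0.37 in HEC-1A, and GNA14, its relative, by -0.15 and 0.41 at signals near background. On the list for phospholipase C, calcium and protein kinase C, 10 of 15 genes were lower in Ishikawa and 6 in HEC-1A, with medians of -0.13 and 0.01, and the Ishikawa median without dim genes was -0.30. PRKCA, protein kinase C alpha, had a difference of -0.82 in Ishikawa and 0.04 in HEC-1A, whereas PPP3CB, a calcineurin subunit, had 0.47 and 0.40.

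Of 18 genes of the MAP kinase and transactivation arm, 9 were lower in Ishikawa and 14 in HEC-1A, with medians of 0.00 and -0.17. CTNNB1, beta-catenin, had differences of -0.42 and -0.28, and PTK2B, a calcium-activated tyrosine kinase, of -0.29 and 0.67. Of 11 genes of receptor desensitization, 2 were lower in Ishikawa and 4 in HEC-1A, with medians of 0.16 and 0.02, and the Ishikawa median without dim genes was 0.05. ARRB1, a beta-arrestin, had -0.51 and -0.38, and GRK3, a receptor kinase, 0.21 and 0.45.

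For the other proteases that process or degrade endothelin, 3 of 12 were lower in Ishikawa and 6 in HEC-1A, and the medians were 0.06 and -0.01. The highest difference of the list in either line was that of CPA1 in HEC-1A (0.46, against -0.22 in Ishikawa), and the lowest was that of MMEL1 in HEC-1A (-0.29, against -0.19), at signals near background. Of 22 transcription factors of the EDN1 promoter, 10 were lower in Ishikawa and 11 in HEC-1A, with medians of 0.03 and -0.01. SMAD3, which carries TGF-β signals to EDN1, was at 7.52 with siControl and 6.78 with siEfp in Ishikawa, and at 8.74 and 8.16 in HEC-1A. PPARG, which is known to repress EDN1, was at 7.79 and 8.57 in Ishikawa, and at 4.03 and 4.36 in HEC-1A, under the background reference. Neither passed a 2-fold difference.

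Other vasoactive peptides and their receptors were lower for 8 of 35 genes in Ishikawa and for 22 of 35 in HEC-1A, and the medians were 0.17 and -0.04. None differed 2-fold in either line. UTS2, the peptide urotensin 2, had differences of -0.44 and -0.99, and CALCB, a calcitonin gene-related peptide, of 0.66 and 0.33. Both were near background on all 4 arrays.

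**Figure D4:**
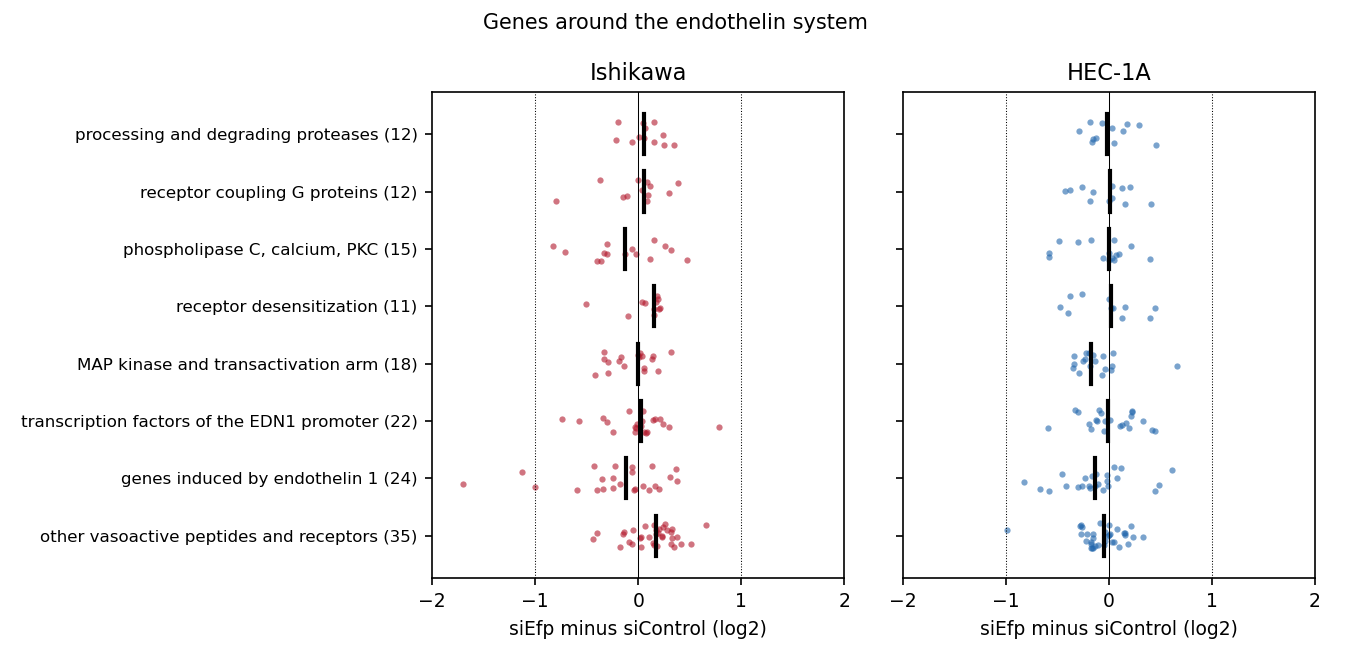
Difference siEfp minus siControl (log2) of each measured gene on the 8 pathway lists, in Ishikawa (left) and HEC-1A (right), with the number of genes in parentheses, the list's median as a black bar and a 2-fold difference as dotted lines. Vertical placement within a list is for legibility only. Only PLAU, PTGS2 and MYC on the list of genes induced by endothelin 1 reach the 2-fold line, in Ishikawa, and the medians lie between -0.17 and 0.17.

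Between the lines, limma called 17 of the 145 genes (11.7%) higher in Ishikawa and 42 (29.0%) higher in HEC-1A, beside the 17% and 18.3% of all genes. On the list of 24 genes induced by endothelin 1, 3 were higher in Ishikawa and 11 in HEC-1A. Of the 22 transcription factors of the EDN1 promoter, 3 and 10 were. For phospholipase C, calcium and protein kinase C the counts were 4 and 7 of 15. The MAP kinase and transactivation arm had 2 and 6 of 18, and receptor desensitization 1 and 4 of 11. The other proteases had 0 and 3 of 12, and the G proteins 0 and 1 of 12. Other vasoactive peptides and receptors went the other way, with 4 and 1 of 35.

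Endothelium is the main source of endothelin 1 in most tissues, so its markers were read beside the ligands. Of 12 endothelial markers, 4 or 5 were above the background reference on each array, and their summed signal was 8.39 to 8.54 on the log2 scale. Of all genes, 28.1% to 30.6% were under that reference on an array. PECAM1 was at 3.14 and 3.17 in Ishikawa and at 3.32 and 3.27 in HEC-1A, and CDH5 at 4.35 and 4.42, and at 4.45 and 4.29, all under the reference. VWF was at 5.18 and 5.21 in Ishikawa, above the reference, and at 4.49 and 4.17 in HEC-1A, under it. PTPRC, the common leukocyte marker, was at 2.90 to 3.17, under the reference, while 3 of the 9 immune markers measured were above it on each array.

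The genes whose pattern was most like that of each ligand were found by the Euclidean distance between the 4 signals after each gene's mean was removed. The 10246 candidates were those that reached an array's median on any of the 4. For EDN1 the nearest was MAP1B, a microtubule protein, at a distance of 0.31, followed by PROM1, LYPD6B, IL1R2 and MAGEC1 at 0.59 to 0.61. MAP1B differed by -0.97 in Ishikawa and by -0.58 in HEC-1A. PROM1 and LYPD6B differed by -1.23 and -0.99 in Ishikawa and by -0.16 and -0.14 in HEC-1A. IL1R2, a decoy receptor for interleukin 1, had -0.65 and -0.60, and MAGEC1 had -0.76 and -0.32. MAP1B, PROM1 and MAGEC1 were under the background reference on both HEC-1A arrays, which limits their differences there.

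For EDN2 the nearest was SLAIN1 at a distance of 0.20, with differences of -1.83 and -0.07. TNFRSF11B, which encodes osteoprotegerin, followed at 0.31 with -1.65 and -0.18. MTARC1 was at 0.32 with -1.61 and 0.21, and KIT, a receptor tyrosine kinase, at 0.33 with -2.05 and -0.54. HAPLN3 was the fifth nearest, at 0.47, with -1.25 and 0.00. On both HEC-1A arrays TNFRSF11B and KIT were under the background reference, as were KIT on the Ishikawa siEfp array and MTARC1 on the HEC-1A siControl array. Nearness to the 4 EDN2 signals chose the genes named, so their large Ishikawa differences and, apart from KIT, small HEC-1A ones follow largely from that choice. Likeness over 4 arrays is a description of these arrays, which include a gap of several log2 units between the lines.

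**Figure D5:**
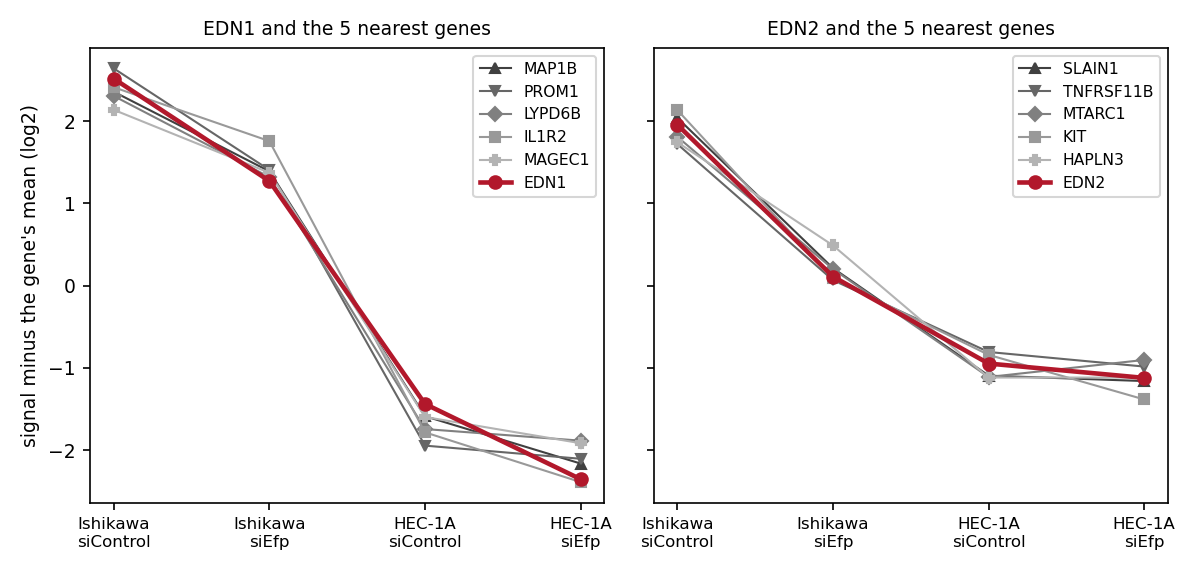
Signal minus the gene's own mean (log2) on the 4 arrays for EDN1 (left) and EDN2 (right) in red and for the 5 genes nearest to each in grey. All 6 genes of each panel are lower with siEfp in Ishikawa, which follows from how they were chosen. The differences are -0.65 to -1.24 in the EDN1 panel and -1.25 to -2.05 in the EDN2 panel.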

How the data were processed

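RNA of each condition was hybridised to 1 Affymetrix array. The authors deposited log2 signals, 1 per probe set, and the submitters' processing notes name RMA and Affymetrix Expression Console, without versions. RMA gives all arrays a common distribution and compresses differences of dim probe sets. The study's methods name an exon array, whereas the probe sets are numbered and annotated as those of a gene-level array of the same series.

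Of 33297 probe sets, 19460 with exactly 1 symbol were averaged per gene, giving 18417 genes. Each measured endothelin gene had 1 probe set. Probes may bind near-identical transcripts.

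A difference is the siEfp signal minus the siControl signal of the same line. A linear model with line and treatment as terms (limma 3.58.1, R 4.3.3) used all 4 arrays and left 1 residual degree of freedom, with Benjamini-Hochberg adjustment over all genes at 0.05. The spread behind its p-values is, for each gene, how far the siEfp difference differed between the lines. For the siEfp effect the lines are taken as replicates. For the line effect the siControl and siEfp arrays of a line are, once the treatment term is allowed for. Spread between cultures of a line is therefore not measured. The error of each gene was moderated by that of the other genes, with 5.54 prior degrees of freedom. The scripts for the 2-fold counts and for the limma fit were tested on simulated data. Promoters were RefSeq windows on GRCh38.p14.

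The members and lists were chosen with earlier results of these data known. Genes named are all members, TRIM25, list members at least 2-fold apart in either line or otherwise the furthest each way, the 5 nearest genes of EDN1 and EDN2, and defining markers. CDH1 was named after its values were seen. Alternatives were centring, a second quantile normalization, the brightest probe set, a filter on dim genes, a 1.5-fold threshold, the 90th percentile for background, and in limma a threshold of 0.1, an intensity trend or no cell line block. Other steps used Python 3.11.15, numpy 2.4.6 and pandas 2.3.3.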

Additional observations from a re-analysis of the deposited data

Results flagged for a closer look

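EDN3 had opposite directions in the lines, with a log2 difference of 0.37 in Ishikawa and -0.19 in HEC-1A. These differ by 0.55, and its signals were close to background on all 4 arrays. PTGS2 had -1.13 in Ishikawa and 0.49 in HEC-1A, which differ by -1.62, and both HEC-1A arrays were under the background reference. With 1 array per condition neither difference between the lines was tested.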

How the results depend on the processing

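Of 89 values recomputed under the alternatives, 12 moved and 0 reversed. Only a member's value of at least 2-fold could be labelled reversed, not a count or a list's median. The brightest probe set gave 15 of the 89, which could not move, as each measured member had 1 probe set. Centring gave 26 and subtracted only 0.01 log2 in each line. A count was taken to move beyond 1.5 times, a list's median beyond 0.1 log2, and a member's value beyond the SD of genes of like signal or across 2-fold. The members' differences between siEfp and siControl and between the lines shifted by at most 0.07 log2. With the 90th percentile of the olfactory receptor genes as reference, 4 member signals in place of 6 were near background, as EDN3 on the Ishikawa siControl and HEC-1A siEfp arrays changed side. The counts over all genes moved most. At 1.5-fold, 686 genes were lower and 274 higher in Ishikawa, and 375 lower and 246 higher in HEC-1A. Without genes below the median signal, 15 were higher in Ishikawa and 10 in HEC-1A, and the Ishikawa medians were -0.30 for phospholipase C, calcium and protein kinase C, -0.25 for genes induced by endothelin 1 and 0.05 for receptor desensitization. The siEfp effect over both lines, with 30 genes called, was called for 182 with an intensity trend and for 85 at an adjusted p under 0.1. Without the cell line block 0 were called, with 252 at an unadjusted p under 0.05. In addition, 5 list medians changed sign, all lying within 0.1 of 0 on both sides. Leaving out an array was not possible with 1 per condition, and no test within a line can be had. Differences of EDN3 and EDNRB, and of EDN1 in HEC-1A, are limited by their signal over background.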
